A study of Mus musculus with 6 samples.

Results

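The 10 epithelial keratin genes described here are Krt4, Krt5, Krt7, Krt8, Krt14, Krt15, Krt17, Krt18, Krt19 and Krt23. They were chosen by gene symbol and are read by 11 of the 45281 probes on the array, 1 probe per gene except for Krt8, which has 2. The array holds 19057 genes with a named probe in all, among them 39 other keratin genes. The 6 Illumina bead arrays hold RNA of the E10.5 lens placode region, from CBP/p300 DCKO embryos on 3 arrays and from WT embryos on the other 3, all of mixed FVB and 129 background. By the methods of the study, both genotypes carried CBP/p300 fl/fl alleles. Pax6-Cre was present in the DCKO embryos only. Pax6 regulatory sequence restricts this Cre transgene mainly to the part of the head ectoderm that gives rise to lens and cornea. The WT embryos, without Cre, are recorded as wild type. The tissue was cut from frozen sections by laser, and the records call the WT tissue lens placode but the DCKO tissue surface ectoderm. The records state that RNA from 3 embryos was pooled by genotype and amplified in triplicate, whereas the article describes biological replicates, so the p-values may measure technical spread only.

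Keratins are the intermediate filament proteins of epithelia, and a filament forms only when an acidic type I keratin pairs with a basic type II keratin. Krt8 and Krt18 are the first pair made in the embryo and the pair of simple, single-layered epithelia, often joined by Krt7 and Krt19, whereas Krt5 and Krt14 pair in the basal layer of stratified epithelia such as the epidermis. The lens and the early head surface ectoderm derive from one epithelial sheet, and lens fibre cells build their cytoskeleton largely from vimentin and the beaded filament proteins.

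Levels are given as log2 of the background-corrected, quantile-normalized bead intensity. A probe was counted as detected on an array at a detection p under 0.05 against the negative control beads, and the lowest level of any detected probe was 5.36 to 5.53 per array. The limma test covered the 19552 probes detected on at least 3 of the 6 arrays, and its p-values were adjusted over all of them by Benjamini-Hochberg. An adjusted p under 0.05 is referred to as a call. An array of WT had 18081 to 19769 detected probes and one of DCKO 18724 to 19551, and the correlation of levels was 0.930 to 0.934 within WT, 0.878 to 0.883 within DCKO and 0.837 to 0.857 between genotypes. Of the genes targeted by the deletion, Ep300 had 4 tested probes, of which 1 was called lower in DCKO, at least 2.87-fold (adjusted p = 0.0159, limma). None of the 3 tested Crebbp probes passed the test in limma (adjusted p from 0.233 to 0.875), with 1 of them under an unadjusted p of 0.05. Whether any of these probes lies in a deleted exon was not known here.

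Of the 10 keratin genes, Krt7 and Krt8 rose in DCKO, none fell, Krt18, Krt14 and Krt5 were tested and did not pass, and Krt4, Krt15, Krt17, Krt19 and Krt23 were detected on too few arrays to be tested. Over all 10123 tested genes, each taken by its brightest tested probe, 2.1% were called higher in DCKO and 2.78% lower. Both called keratins belong to the type II genes of simple epithelia. Among the 5 tested keratins, all 3 DCKO arrays lay above all 3 WT arrays for Krt7, Krt8 and Krt18, and this lack of overlap was found for 14.4% of all tested genes. These counts cannot be read against those shares as they stand, because a gene such as Krt7 or Krt14, which reached 3 detected arrays through DCKO, had to differ between genotypes to be tested with so little signal in WT. None of the 5 tested keratins was lower at an unadjusted p under 0.05 in limma, and 4 were higher, as were 10.6% of all tested genes. In tissue of this kind, fewer cells of one type and less RNA per cell cannot be told apart.

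**Figure D1:**
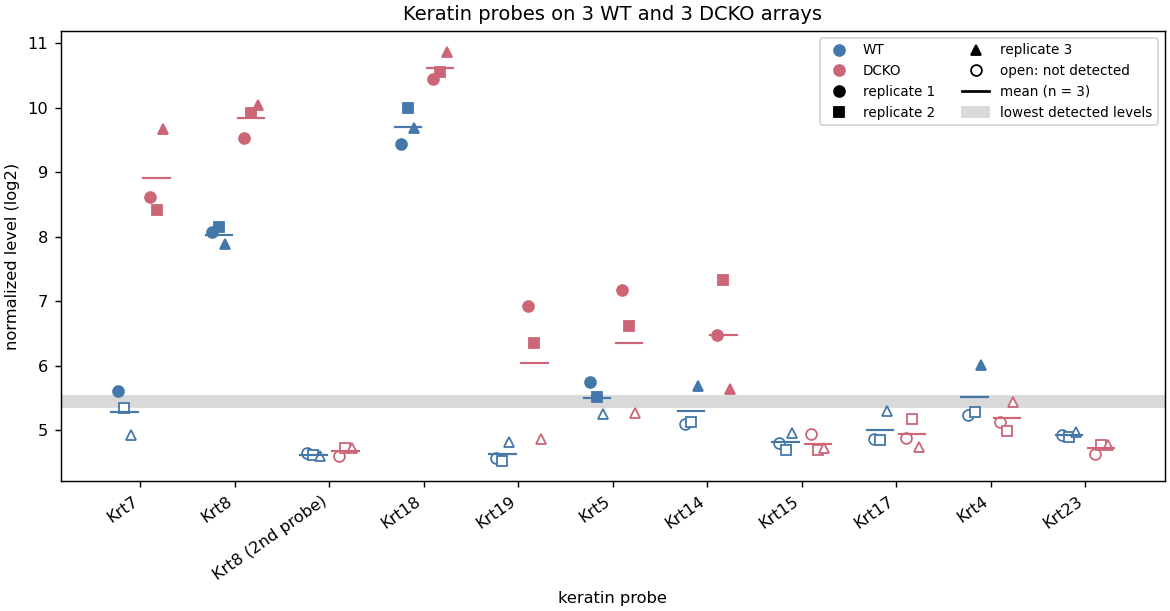
Normalized level (log2) of the 11 keratin probes on each array, with WT in blue, DCKO in red, one marker shape per replicate number, a line at the mean of 3 arrays and open markers where the probe was not detected; the grey band spans the lowest detected levels of the 6 arrays. Among the tested keratins, Krt7, Krt8 and Krt18 show 3 DCKO arrays above all 3 WT arrays, whereas for Krt5 and Krt14 the third DCKO array lies among the WT arrays.

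These 3 genes lie in the type II keratin cluster on chromosome 15 (assembly GRCm38.p6). The cluster holds 26 keratin genes over 684 kb, and Krt18, although it encodes a type I keratin, sits at its end, 23873 bases from Krt8 (chr15:101996711-102004342), at chr15:102028216-102032026. Krt7 lies at chr15:101412403-101427806, 568904 bases from Krt8 with 31 annotated genes between them. The 250 bases before the annotated start of each gene, from RefSeq with the same assembly, are printed 5′ to 3′ on the gene's strand. They are shown for the 3 tested members whose genotypes did not overlap. Capitals mark matches on either strand to GGGCGG (the GC box) and to GCCNNNGGC (the palindromic AP-2 motif).
Krt7: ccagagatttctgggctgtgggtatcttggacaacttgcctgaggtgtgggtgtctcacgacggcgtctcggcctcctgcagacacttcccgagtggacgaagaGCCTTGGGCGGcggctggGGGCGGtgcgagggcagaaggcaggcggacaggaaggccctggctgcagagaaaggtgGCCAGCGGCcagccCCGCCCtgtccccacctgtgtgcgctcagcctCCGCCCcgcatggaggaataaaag
Krt8: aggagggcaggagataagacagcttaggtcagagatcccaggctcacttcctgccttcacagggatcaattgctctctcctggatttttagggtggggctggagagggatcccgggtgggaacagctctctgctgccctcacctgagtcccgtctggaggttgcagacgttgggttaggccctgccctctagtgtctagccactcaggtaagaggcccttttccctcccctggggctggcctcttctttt
Krt18: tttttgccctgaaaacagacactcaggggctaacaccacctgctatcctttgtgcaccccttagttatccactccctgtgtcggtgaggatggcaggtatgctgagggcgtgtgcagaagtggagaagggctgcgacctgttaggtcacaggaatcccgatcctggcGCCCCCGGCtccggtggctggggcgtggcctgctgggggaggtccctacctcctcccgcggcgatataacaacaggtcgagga
These windows lie at chr15:101412153-101412402 on the plus strand for Krt7, chr15:102004343-102004592 on the minus strand for Krt8 and chr15:102027966-102028215 on the plus strand for Krt18. The Krt7 window held 4 GC box matches, the first starting 141 bases and the last 24 bases before the start, and 2 AP-2 matches, of which the one at 146 to 138 bases before the start overlaps a GC box. The Krt18 window held 1 AP-2 match, 83 to 75 bases before the start, and the Krt8 window held neither motif. Among all 32851 windows of this length, 32.7% held the GC box and 13.7% the AP-2 motif. Windows of Krt5, Krt14 and Krt23 were also searched and held neither motif (that of Krt14 precedes a start inside the gene's annotated span, chr11:100203162-100207510), so that 1 of 6 keratin windows held a GC box and 2 of 6 an AP-2 match. The letters TATAAA (in 12.4% of all windows), TGANTCA (the AP-1 motif, in 6.75%) and AACCGGTT (a grainyhead motif, in 0.116%), searched on both strands, were found in none of the 6.

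Krt7, a type II keratin of simple and glandular epithelia, had the largest change among the tested members. Its level was 5.61, 5.34 and 4.92 on WT arrays 1, 2 and 3, and 8.62, 8.42 and 9.67 on the DCKO arrays. All 3 DCKO arrays lay far above the WT arrays, of which only the first detected the gene. The mean rose from 5.29 ± 0.35 (SD, n = 3) to 8.90 ± 0.67 (SD, n = 3), a log2 difference of 3.61 (SE 0.39, 95% interval 2.67 to 4.56, adjusted p = 0.00647 by limma). With the 2 undetected WT arrays set at the lowest detected level, the means differed at least 10.45-fold. The separation was visible in the bead signal before any normalization, at 220.8, 205.0 and 218.2 in WT and 640.6, 470.4 and 1129.6 in DCKO, with bead standard errors of 6.3 to 36.5. The size of the change moved with the background correction: the log2 difference was 1.67 when none was applied and 2.41 when 50 was added after a correction fitted on all probes, and the call held in both.

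Krt8, the type II partner of Krt18, was detected on every array by one of its probes. The level there was 8.07, 8.15 and 7.89 in WT and 9.53, 9.93 and 10.05 in DCKO. The genotypes did not overlap, and the lowest DCKO array was well above the highest WT array. From a WT mean of 8.04 ± 0.14 (SD, n = 3) to a DCKO mean of 9.84 ± 0.27 (SD, n = 3), Krt8 rose 3.48-fold, a log2 difference of 1.80 (SE 0.24, 95% interval 1.23 to 2.37, adjusted p = 0.0134 by limma). The call was lost when WT array 1, 2 or 3 was left out (adjusted p = 0.0639, 0.0558 and 0.0704), while the difference stayed between 1.69 and 1.95 with any array left out. The second Krt8 probe was not detected on any array, at 4.61 to 4.66 on the WT arrays and 4.60 to 4.73 on the DCKO arrays. The probes of this gene thus differed in detection, and the undetected one could not measure a difference. The change rests on the other probe alone. Which Krt8 transcripts each probe reads was not examined.

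Krt18, the type I partner of Krt8, was likewise detected on all 6 arrays. Its level was 9.44, 9.99 and 9.69 in WT and 10.44, 10.56 and 10.87 in DCKO. Every DCKO array was again above every WT array, but the spread within each genotype was larger against the difference than for Krt8. The WT mean of Krt18 was 9.71 ± 0.28 (SD, n = 3) and the DCKO mean 10.62 ± 0.22 (SD, n = 3). Their log2 difference of 0.92 (SE 0.25, 95% interval 0.31 to 1.52) did not pass (adjusted p = 0.103 by limma). It passed under 2 of the alternatives, without background correction (0.79, adjusted p = 0.0426) and with trended and robust variance moderation (0.92, adjusted p = 0.0349).

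**Figure D2:**
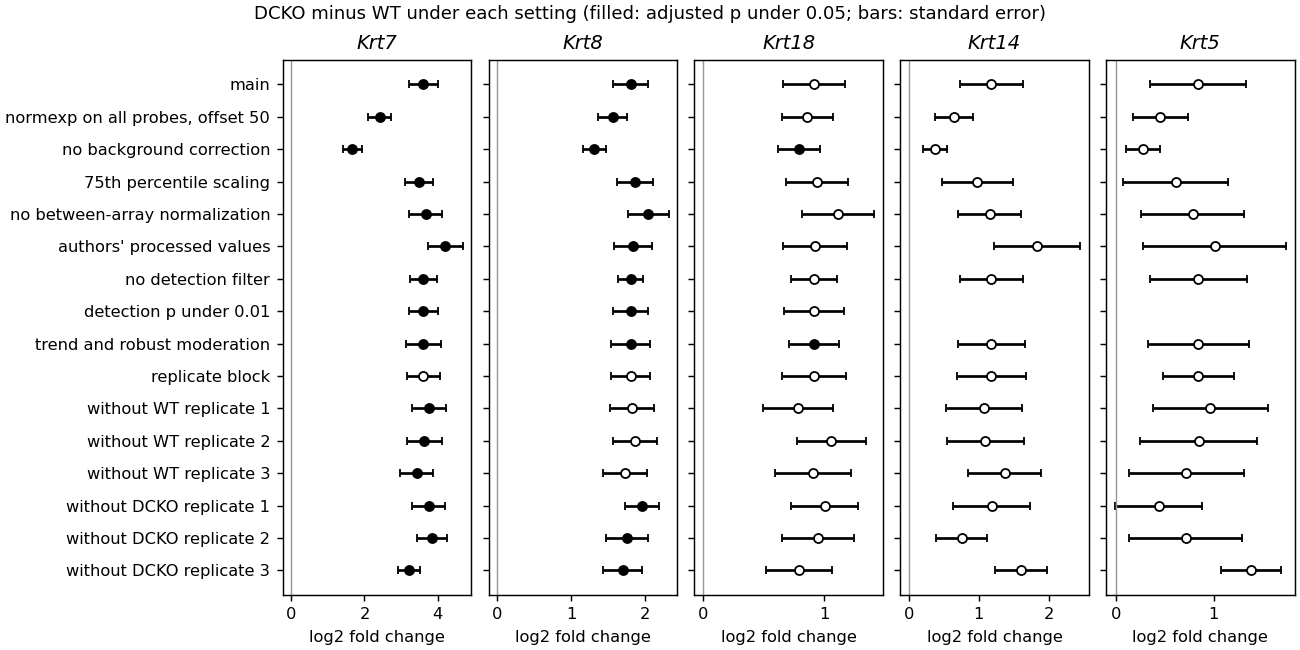
DCKO minus WT log2 fold change of the 5 tested keratins under each processing setting (rows), with standard errors as bars and filled points where the adjusted p was under the 0.05 threshold; each panel has its own horizontal scale, and a missing point means that the probe was not tested under that setting. Every difference was above 0; Krt7 was filled except under the replicate block, Krt8 except under the block and without a WT array, and Krt18 in 2 settings, while Krt14 and Krt5 were filled in none.

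Krt14, the type I keratin of basal epidermal cells (chr11:100203162-100207510, type I cluster on chromosome 11), was detected on 1 WT array and on all DCKO arrays. Its level was 5.09, 5.13 and 5.68 in WT and 6.48, 7.33 and 5.64 in DCKO. The first and second DCKO arrays were above all WT arrays, and the third lay within the WT range, so the genotypes overlapped. The means were 5.30 ± 0.33 (SD, n = 3) and 6.48 ± 0.85 (SD, n = 3), and the log2 difference of 1.18 (SE 0.45, 95% interval 0.096 to 2.27) did not pass (adjusted p = 0.207 by limma). Without DCKO array 3 it was 1.60 (adjusted p = 0.0970), and without DCKO array 2 it was 0.76.

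Krt5, the type II partner of Krt14 (chr15:101707069-101712905), also had its lowest DCKO level on array 3. Its level was 5.76, 5.51 and 5.26 in WT and 7.17, 6.61 and 5.27 in DCKO. DCKO arrays 1 and 2 were above the WT arrays, whereas DCKO array 3 did not detect the gene and was level with the lowest WT array. From 5.51 ± 0.25 (SD, n = 3) to 6.35 ± 0.97 (SD, n = 3), the log2 difference was 0.84 (SE 0.49, 95% interval from -0.34 to 2.02, adjusted p = 0.399 by limma), which did not pass. With DCKO array 3 left out the difference was 1.38 (adjusted p = 0.0876), and with DCKO array 1 left out it was 0.43.

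Krt19, a type I keratin of simple and ductal epithelia that is also found in periderm (chr11:100140810-100145926), was not tested because only DCKO arrays 1 and 2 detected it. Its level was 4.57, 4.53 and 4.82 in WT and 6.92, 6.36 and 4.87 in DCKO. The third DCKO array was again near the WT arrays, just above the highest of them, and under the lowest detected level. The normalized levels thus did not overlap, but with that DCKO array at background. The mean of 6.05 ± 1.06 (SD, n = 3) in DCKO was at least 1.53-fold above WT, where no array detected the gene and the measured mean was 4.64 ± 0.16 (SD, n = 3). When probes were tested with no detection filter, the log2 difference of 1.41 had an SE of 0.53 and an adjusted p of 0.357 (limma). Before normalization the signal was 160.8, 153.0 and 210.2 in WT and 310.4, 236.0 and 184.8 in DCKO, so WT array 3, which was brighter as a whole (median signal 235 against 192.9 to 202.2 on the other arrays), exceeded DCKO array 3.

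**Figure D3:**
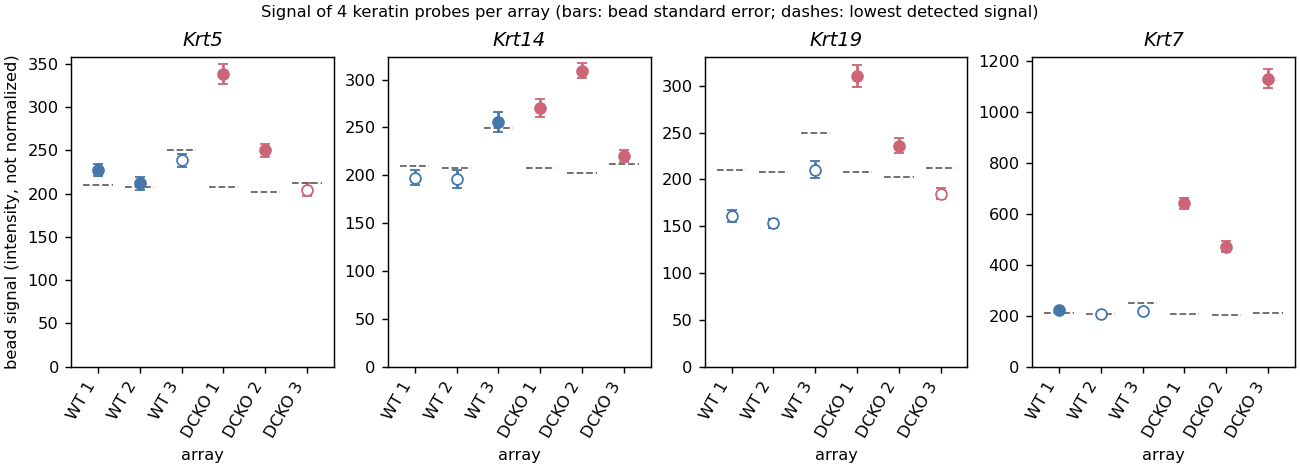
Bead signal before normalization for Krt5, Krt14, Krt19 and Krt7 on each array, with the bead standard error as bars, a dash at the lowest signal detected on that array and open markers for undetected values. Krt5, Krt14 and Krt19 were raised on DCKO arrays 1 and 2 and at or near the dash or below it on DCKO array 3, where Krt7 was highest at 1129.6.

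The 6 keratins that were detected in DCKO thus differed in which arrays were high. Krt7, Krt8 and Krt18, the genes of simple epithelia on chromosome 15, had their highest level on DCKO array 3, whereas Krt5, Krt14 and Krt19 had their lowest DCKO level there. This division was noticed in the values and was not tested. The number of the 10 members detected was 4, 3 and 4 on the WT arrays and 6, 6 and 4 on the DCKO arrays. Over all probes, DCKO arrays 2 and 3 detected similar numbers, 18755 and 18724.

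The other 4 members were at background. Krt4, a type II keratin of the stratified lining of mouth and oesophagus, was detected on WT array 3 alone, with levels of 5.24, 5.29 and 6.02 in WT and 5.13, 4.99 and 5.44 in DCKO. Krt15, a type I keratin of basal cells, lay at 4.69 to 4.96 in WT and 4.69 to 4.95 in DCKO. Krt17, a type I keratin of periderm, hair follicle and wounded epidermis, lay at 4.85 to 5.31 in WT and 4.75 to 5.18 in DCKO, and Krt23, a further type I keratin, at 4.90 to 4.98 and 4.63 to 4.78. None of the last 3 was detected on any array, and no difference between genotypes could be measured for them at these signals. Krt15 lies 4860 bases from Krt19 with no gene between them, and was undetected on the arrays where Krt19 was raised.

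The 39 other keratin genes have 55 probes, of which 48 were detected on no array, at levels of 4.34 to 5.41. Of these genes 7 were detected on at least 1 array and 3 were tested, and in limma none was called in either direction, with 0 higher and 1 lower at an unadjusted p under 0.05. That gene was Krt10, the type I keratin of differentiating epidermal layers, at 9.14, 9.09 and 9.09 in WT and 8.19, 7.23 and 7.98 in DCKO. Its arrays did not overlap and ran in the opposite direction to Krt7 and Krt8, with a log2 difference of -1.31 (SE 0.30, adjusted p = 0.0634), and it passed as lower under 3 alternatives at the same threshold: without background correction, with an offset of 50 and with trended and robust moderation. Krt90 was detected on 1 WT and 2 DCKO arrays and varied widely within both genotypes, at 4.76, 5.03 and 7.26 in WT and 4.65, 8.06 and 6.34 in DCKO (log2 difference 0.67, SE 1.00, adjusted p = 0.765). Krt27, a hair follicle keratin, was tested near the detection limit with a log2 difference of -0.07 (adjusted p = 0.893). Krt16 was detected on 2 WT arrays, Krt75 on DCKO array 2 and Krt72 on none, and these were not tested.

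**Figure D4:**
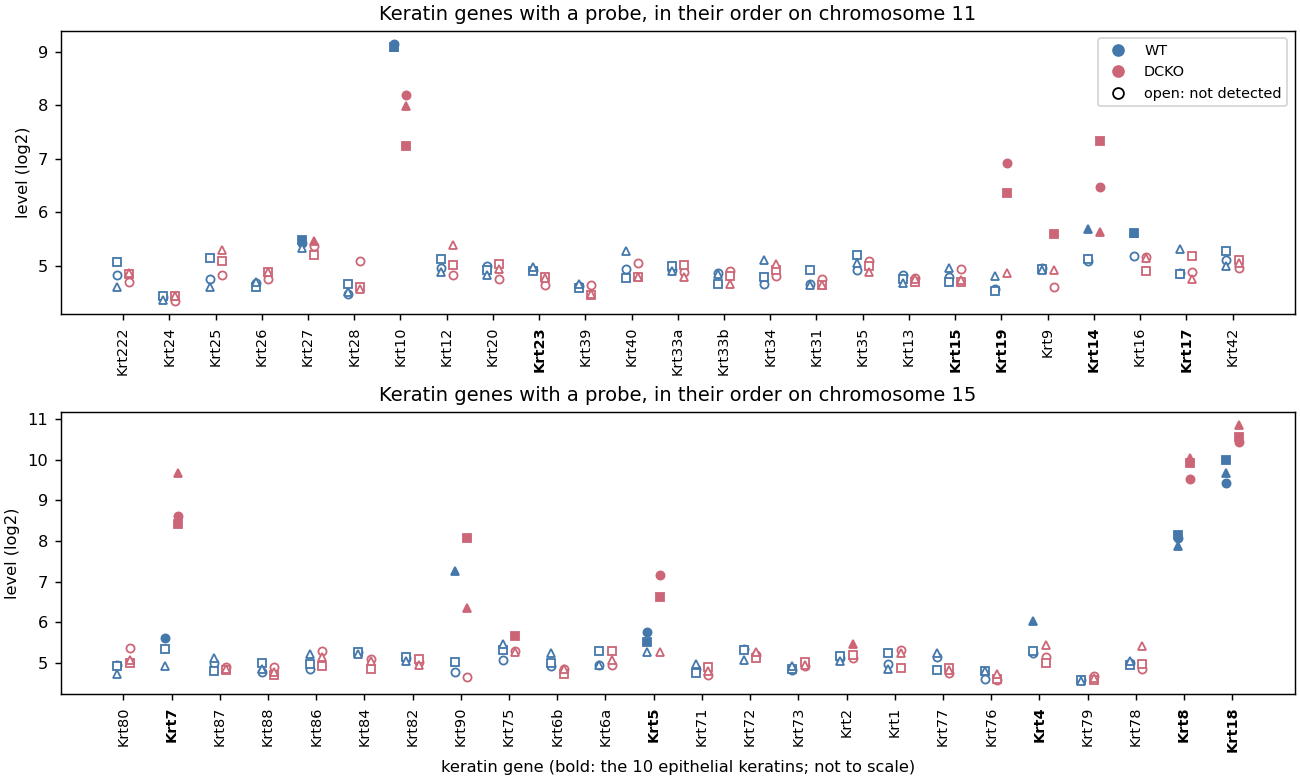
Normalized level (log2) of every keratin gene with a probe, in chromosomal order on chromosome 11 (top) and chromosome 15 (bottom), 1 probe per gene, with WT in blue, DCKO in red, marker shapes for replicate numbers and open markers where not detected; spacing is not to scale. Most genes of both clusters lie at background in both genotypes, and Krt10 on chromosome 11 is lower in DCKO while Krt7, Krt8 and Krt18 on chromosome 15 are higher.

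Other genes near the members were compared next. Within 200 kb of a keratin member, 9 genes other than keratins were tested, and in limma none was called and none had an unadjusted p under 0.05. Their log2 differences ran from -0.65 to 0.89. The nearest was Eif4b, a translation initiation factor gene 41747 bases from Krt18, at -0.04 (SE 0.24).

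Proteins that anchor keratin filaments to desmosomes and hemidesmosomes were examined as a list of 14 genes, 10 of them tested. Of these, 2 rose, 0 fell and 8 did not pass. Their median log2 difference was 0.78 against 0.01 over all tested genes, and 5 were higher and 2 lower at an unadjusted p under 0.05 in limma. Ppl and Evpl were detected on 1 WT array and reached the filter through DCKO, where they were high, so neither the counts nor the median can be read against all tested genes. The count of 2 became 1, Pkp3, without WT array 1 or 2. Pkp3, a desmosomal plakophilin, went from 6.34, 5.23 and 5.57 in WT to 10.00, 9.33 and 9.84 in DCKO, at least 15.4-fold (adjusted p = 0.00381). Ppl, the plakin periplakin, had a WT mean of 5.44 ± 0.59 (SD, n = 3) and a DCKO mean of 8.48 ± 0.50 (SD, n = 3), at least 7.21-fold higher (adjusted p = 0.0130). Both were thus higher on all 3 DCKO arrays, as Krt7 was. Pkp4, a further plakophilin, differed by 0.16 (adjusted p = 0.701), although another of its probes was called higher by 1.24, and Dst, the plakin dystonin, differed by -0.39 (adjusted p = 0.698), although another of its probes was called lower by -1.33 (adjusted p = 0.0439). Plec, the large plakin plectin, singled out after its values were seen, was at -2.37 (SE 0.53, adjusted p = 0.0611), and was called lower without DCKO array 2 and under 3 alternatives at the same threshold: an offset of 50, no background correction, and trended and robust moderation. The 2 other tested Plec probes disagreed in sign, at -0.74 and 0.41, and did not pass. Dsp, which encodes desmoplakin, had no probe of that name.

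Among 18 transcription and splicing factors of epithelia, 12 were tested, and 5 rose, 0 fell (0 also at an unadjusted p under 0.05 in limma) and 7 did not pass. The median of the 12 was 1.29 on the log2 scale, a description only, since Ovol1, Ovol2, Trp63 and Klf5 reached the filter through DCKO. Without WT array 1, 2 or 3, or DCKO array 3, the count of 5 became 3 (Dlx3, Grhl2 and Ovol2). Grhl2, a grainyhead-like factor, rose at least 14.7-fold (adjusted p = 0.00640) and Ovol2, a zinc finger repressor of mesenchymal genes, at least 7.79-fold (adjusted p = 0.00647). Trp63, the p63 factor of stratified epithelia and a known activator of Krt5 and Krt14, was at 5.22, 5.92 and 5.45 in WT and 8.33, 7.30 and 7.67 in DCKO, at least 4.47-fold higher (adjusted p = 0.0219). The article, by in situ hybridization, describes p63 as lost from the presumptive lens ectoderm of double mutants, the opposite direction. The disagreement over the mutant tissue was not examined here. On DCKO array 3, Trp63 was above all WT arrays, Krt14 was detected, and Krt5 and Krt19 were not. A link between Trp63 and these keratins was not tested. Dlx3, a homeobox factor of the ectoderm, rose 8.25-fold (adjusted p = 0.00725). The AP-2 genes Tfap2c and Tfap2a, at -0.50 (adjusted p = 0.276) and 0.42 (adjusted p = 0.486), did not pass. A further AP-2 gene, Tfap2b, singled out after its values were seen, was at 1.56 without overlap (SE 0.48, adjusted p = 0.127 by limma). It did not pass either, nor did its 5 other tested probes, at -0.40 to 0.87.

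Intermediate filament genes other than keratins, 16 in the list and 9 of them tested, held 0 that rose, 3 that fell and 6 that did not pass. Their median log2 difference was -0.87, and 0 were higher at an unadjusted p under 0.05 in limma. Vim, the vimentin gene of mesenchyme and lens, fell from 9.44, 9.46 and 9.52 in WT to 6.45, 6.99 and 7.06 in DCKO, 6.24-fold (adjusted p = 0.00448). Nes, which encodes the neural progenitor filament nestin, was at least 2.40-fold lower (adjusted p = 0.0270), although another of its tested probes, at -1.09, did not pass. Gfap, a glial filament gene, was at least 2.98-fold lower (adjusted p = 0.0336). The nuclear lamins Lmnb1 and Lmnb2, at -0.17 (adjusted p = 0.699) and 0.17 (adjusted p = 0.716), did not pass. Vim was the only 1 of the 3 called without WT array 1 or 3, without any 1 of the DCKO arrays, and without background correction. Here Nes, Gfap and Sync reached the filter through WT. These lists were chosen with earlier results of these data known, and their directions describe these arrays.

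**Figure D5:**
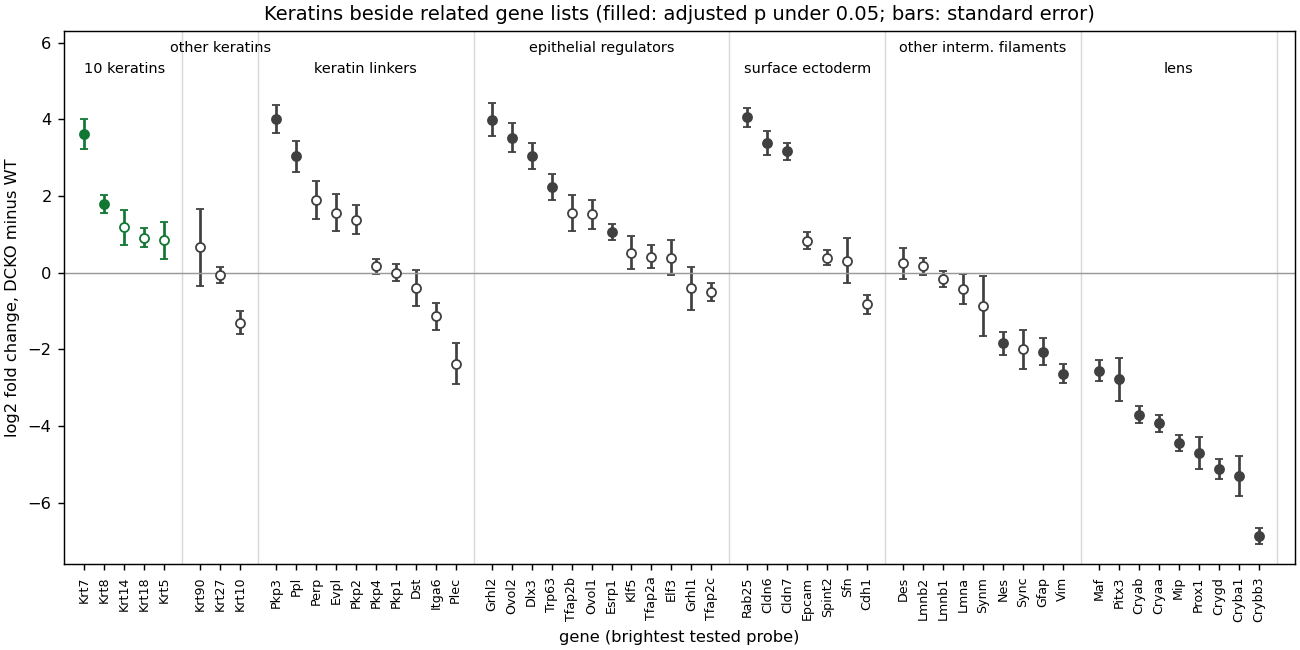
DCKO minus WT log2 fold change of each tested gene, by its brightest tested probe, for the 10 keratins (green, 5 tested) and 6 other lists, with standard errors as bars and filled points at an adjusted p under 0.05; for genes undetected in one genotype the fitted value is not the bound given in the text. Krt7 and Krt8 are filled above 0, like Pkp3, Ppl and 5 epithelial regulators, and Vim, Nes, Gfap and all 9 tested lens genes are filled below 0.

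Markers of the tissue and of other cell types moved with genotype in the same arrays. Of 10 surface ectoderm markers, 3 of the 7 tested rose: Rab25, an epithelial small GTPase, at least 14.0-fold (adjusted p = 0.000876), and the tight junction genes Cldn7, 8.99-fold (adjusted p = 0.00174), and Cldn6, by 3.39 on the log2 scale (adjusted p = 0.00486). Cdh1, which encodes E-cadherin, was at 12.46, 12.69 and 12.50 in WT and 12.09, 11.60 and 11.51 in DCKO and did not pass (adjusted p = 0.126), although it was called lower without background correction and with trended and robust moderation. It was detected on every array of both genotypes. On the log2 scale, the summed level of the surface ectoderm list ran from 13.09 to 13.24 over the WT arrays and from 13.57 to 13.89 over the DCKO arrays, and that of the 10 keratins from 10.28 to 10.62 and from 11.55 to 11.96. All 9 tested lens markers fell, with the list's sum at 14.05 to 14.20 on the WT arrays. On the DCKO arrays it was 9.50 to 9.87, and Crybb3, Crygd and Cryaa were at background there. Macrophage markers summed to 10.999 to 11.43 in WT, with 7 of 8 detected on each array, and 7.89 to 8.44 in DCKO. The brightest probes of Aif1 and Mpeg1 were at background in DCKO, and 3 of the 7 tested genes fell. Another Aif1 probe was detected on DCKO arrays 1 and 3, and its log2 difference of -0.69 did not pass. Mesenchyme markers summed to 12.14 to 12.26 in WT and 9.64 to 10.28 in DCKO, but nearly all of the WT sum was Pdgfra, at 12.04, 12.14 and 12.08. Of the 8 markers with a probe, 2 to 4 were detected on a WT array and 3 to 6 on a DCKO array. The 3 tested genes did not move one way. Pdgfra, a growth factor receptor gene, fell 12.1-fold (adjusted p = 0.00351), Prrx1 was called higher by 1.45 on the log2 scale (adjusted p = 0.0465), a call lost with any array left out, and Foxc1 was at 1.47 without passing (adjusted p = 0.158). Erythroid markers summed to 12.02 to 12.34 and 11.36 to 11.57 (Hba-a1 alone of 4 tested fell, and no longer without WT array 1, 2 or 3), endothelial markers to 7.87 to 8.92 and 7.52 to 7.72, and optic vesicle markers to 8.75 to 9.17 and 8.43 to 8.80, with no call in the last 2 lists. Rab25 and Prrx1 reached the filter through DCKO, and Crybb3, Crygd, Cryaa, Aif1 and Mpeg1, among others, through WT. The counts of these lists therefore cannot be read against all tested genes. The part of these marker shifts in the keratin differences was not tested.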

How the data were processed

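For each probe and array the authors deposited the bead intensity with no background subtracted and no normalization, its bead standard error and number, and a detection p-value against negative control beads. GenomeStudio produced this export, and its version is not given in the sources used here. A second deposited table holds processed intensities on a linear scale (25.3% below 0, median 16.9), whose exact normalization is not stated. In R 4.3.3, neqc (limma 3.58.1) turned the deposited intensities into log2 levels, using the detection p-values for the normexp background, an offset of 16 and quantile normalization. Of 45281 probes, 34885 carry 1 gene symbol, 18 several and 10378 none here, and 34807 were matched by Entrez identifier to a table of GRCm38.p6, so that older keratin names were included. Tested probes, those detected on 3 or more arrays, were passed to lmFit and eBayes without a block. For a fold given as "at least", the brighter genotype's mean was set against the dimmer genotype's mean after raising each array's value to its lowest detected level where it lay under it. A gene is given by its tested probe with the highest mean. Named were all probes of the members, the 6 other keratins with the highest mean level, and up to 4 called and 2 uncalled genes of each list. Plec and Tfap2b were added after their values were seen. The members, lists and alternatives were chosen with earlier results of these data known. Alternatives were an offset of 50 after normexp fitted on every probe, levels left uncorrected for background, 75th percentile scaling, arrays not normalized to each other, the processed table floored at 16, no filter, a detection p under 0.01, trended and robust moderation, thresholds of 0.01 and 0.10, a replicate block, each array left out and the mean of a gene's probes. All arrays lay on 1 chip, so no chip effect could be estimated, and the number of arrays limits the precision. The test was tried on simulated data first, with 200 of 19552 probes changed, fewer than were called in the real data. There it recovered 0.962% of log2 changes of 1, 39.4% of 2 and 78.5% of 4. These rates hold for that setting and may differ in the real data. A gene that did not pass may therefore still differ. The GenomeStudio test that the article used after cubic spline normalization was not run.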

Additional observations from a re-analysis of the deposited data

How the results depend on the processing

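The number of keratin members called higher, 2 with the settings of the report, was 1 at an adjusted p under 0.01, 1 to 2 with any array left out, and 2 to 3 under the other alternatives except the replicate block, and no member was called lower under any of the 18. No member's difference changed sign under any alternative that tested it. Without WT array 1, 2 or 3 the count was 1, Krt8 being the gene lost. Over all probes, 346 were called higher and 549 lower. These became 54 and 165 at an adjusted p under 0.01, 736 and 1024 at 0.10, and 59 to 222 and 170 to 398 with any array left out. Among the arrays left out, those of WT lowered the counts most, to 75, 81 and 59 higher and 196, 211 and 170 lower without WT array 1, 2 and 3. The cause was not tested.

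With the replicate number as a block, 49 probes were called higher and 156 lower, and 0 keratin members were called in limma, 3 having an unadjusted p under 0.05 (Krt7 had an adjusted p of 0.0545 and Krt8 of 0.0754, with the same differences). Under the block the keratin linkers called higher went from 2 to 1, the epithelial regulators from 5 to 2, and the other intermediate filaments called lower from 3 to 1. Deviations of same-numbered arrays from their genotype means correlated at 0.033, 0.033 and 0.010, and the labels give the arrays no pairing beyond the number. Every array correlated best with its own number, the highest other correlation being 0.001. Since the deviations were taken from means of 3 arrays, values this small cannot decide whether arrays were paired.

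Keratins near the detection limit are bounded by signal over background: Krt15, Krt17 and Krt23 were undetected on all arrays, and Krt4, Krt5, Krt7, Krt14 and Krt19 on at least 1 array.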
